A study of Mus musculus with 40 samples.

Results

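Astrocytes of the nucleus accumbens were compared between mice that avoided other mice after repeated social defeat and mice that did not. The comparison took the 4 stressed and the 3 resilient accumbens libraries, 7 of the 40 libraries in the series, as their labels named them. The study pulled tagged ribosomes out of dissected brain tissue and sequenced the RNA bound to them, a method called translating ribosome affinity purification. It sampled the prefrontal cortex, hippocampus, nucleus accumbens and caudate putamen in stressed, resilient and control mice.

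All groups carried the same transgene, Tg(Aldh1l1-EGFP/Rpl10a)JD130Htz, in which the Aldh1l1 promoter drives a green fluorescent ribosomal protein. Stressed mice had met a CD1 aggressor for 10 min a day on 10 days and then had a social interaction index below 1. Resilient mice had the same defeat but an index above 1. The 3 accumbens control libraries came from transgenic mice housed in groups in the same room without defeat. Tissue was taken 2 days after the last defeat, and each accumbens library pooled 4 to 6 mice. The groups were thus set by behaviour after the defeat, and each of the 7 values is that of a pool rather than of an animal. The p-values weigh the difference between groups against the spread between such pools. No library of the unpurified tissue was analysed here.

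The nucleus accumbens receives dopamine and glutamate inputs and takes part in reward and in the response to social threat. Its astrocytes clear glutamate, buffer potassium, supply lipids and lactate, and touch blood vessels with their endfeet. NF-κB is a transcription factor of immune signalling that is held in the cytoplasm by inhibitors such as IκBα, the product of Nfkbia. NF-κB switches on Nfkbia itself, so that the inhibitor also serves as a readout of the pathway.

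The accumbens libraries held 23.3 M to 33.0 M counts in genes, within the 21.3 M to 33.0 M of the whole series. Astrocyte markers had a median of 117 CPM (counts scaled to a common library size) per kilobase of exon, ranging between Aqp4 at 61.6 and Aldoc at 5078. Neuronal markers had a median of 29.8, with Snap25 the highest at 94.8, and oligodendrocyte markers had one of 19.4 on that scale. Markers of striatal projection neurons had a median of 15.6, but Ppp1r1b among them reached 301, above the astrocyte median. Microglial markers were at 0.996 and endothelial markers at 0.096, and none of the markers checked was at 0. The first principal component of the accumbens libraries took 38.6% of the variance. It set stressed pool 4, resilient pool 1 and control pool 1, at -52.5, -33.6 and -34.6, below the other 7 libraries, which lay between -12.3 and 39.6. Those 3 libraries also carry a longer form of the region's name in their deposited names, while the other accumbens libraries carry 1 letter. Many results that differ without 1 of them, but not all, are given with and without it.

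No gene passed the test between stressed and resilient accumbens astrocytes. The edgeR quasi-likelihood test with Benjamini-Hochberg adjustment called 0 of 15283 genes, and the smallest adjusted p was 0.987. DESeq2 also called 0 genes. Without adjustment, 302 genes had an edgeR p under 0.05, which is 1.98% of those tested. Of these, 168 (1.10%) were higher and 134 (0.877%) lower in stressed pools. That count was 1859 (12.3%) without stressed pool 4, and this share stands behind every list count given below without that pool. It was 189 (1.24%) without stressed pool 1, 156 (1.02%) without stressed pool 2, 383 (2.52%) without stressed pool 3 and 138 (0.889%) without resilient pool 1. It was 238 (1.53%) without resilient pool 2 and 384 (2.47%) without resilient pool 3, and no gene passed the adjusted test in any of these fits. With only the libraries of the short name it was 925 (6.07%), again with 0 calls. Over all genes the median log2 fold change, stressed minus resilient, was 0.02, and 8081 genes (52.9%) had a higher estimate in stressed pools.

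The width of the intervals shows how finely these pools could resolve a difference. Among 12511 genes with a mean of at least 1 log2 CPM, the 95% interval of the fold change reached a median of 0.42 log2 units to either side. For 10305 of them (82.4%) the interval lay within 2-fold in either direction. Only 58 of them had an estimated difference above 2-fold, 56 higher and 2 lower in stressed pools. Levels separated the groups completely for 733 genes (4.80%). Every stressed pool lay above every resilient pool for 283 genes (1.85%), and below for 450 (2.94%).

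**Figure D1:**
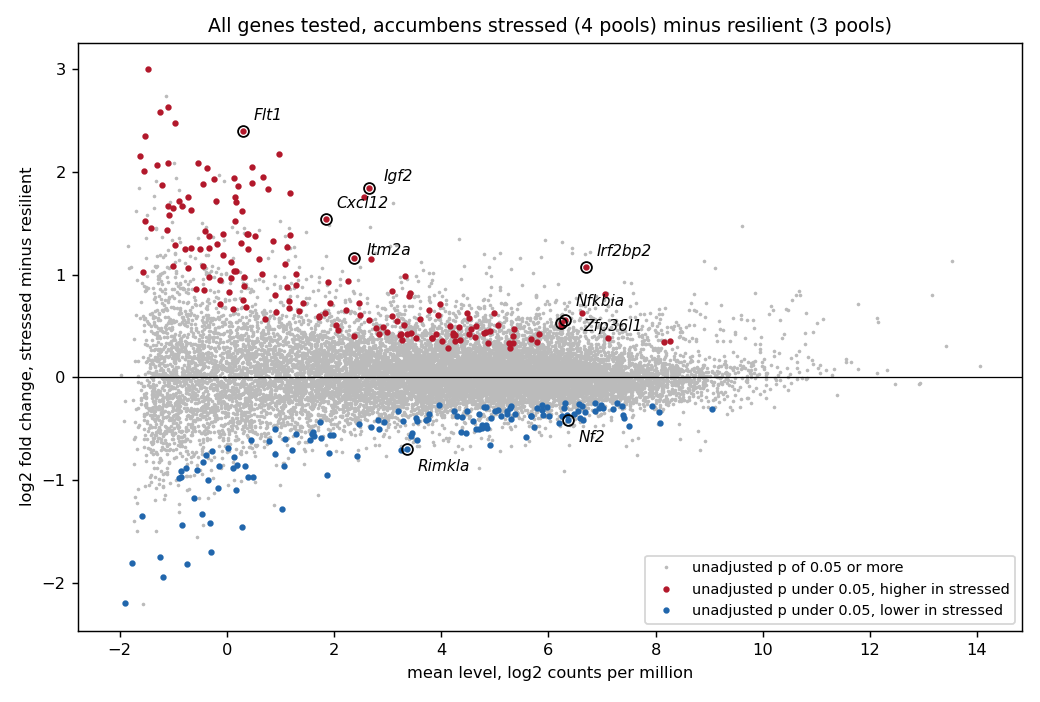
Each point is 1 of the 15283 genes tested, at its mean level (log2 CPM, horizontal) and its log2 fold change, stressed minus resilient (vertical). Red and blue points mark the 168 higher and 134 lower genes with an unadjusted p under 0.05, and circles mark genes named in the text. The red points at the far left, where levels are low, reach higher than the blue ones reach down.

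The genes described next are the 10 in each direction with the smallest unadjusted p among genes with a mean of 1 log2 CPM or above. None passed the adjusted test, where all had an edgeR adjusted p of 0.987, so their values are descriptions of these pools. This choice sets resilient below stressed pools in the 10 higher genes, and it favours low resilient values against control as well. Resilient pools also averaged below control pools for all 10 higher genes, which was not set against all genes. The 250 bases before the start of 3 of these, Nfkbia, Irf2bp2 and Zfp36l1, picked by hand rather than by a rule, are shown here. They come from RefSeq on GRCm38.p6, all on the minus strand, at chr12:55492648-55492897 for Nfkbia, chr8:126593987-126594236 for Irf2bp2 and chr12:80113014-80113263 for Zfp36l1. They are written 5′ to 3′ and end at the base before the transcription start, and capitals mark matches to the motifs searched on both strands.
Nfkbia: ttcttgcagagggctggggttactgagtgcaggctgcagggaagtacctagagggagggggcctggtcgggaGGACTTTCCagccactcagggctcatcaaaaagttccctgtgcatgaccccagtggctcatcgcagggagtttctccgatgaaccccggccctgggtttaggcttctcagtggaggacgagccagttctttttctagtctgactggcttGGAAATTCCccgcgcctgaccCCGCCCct
Irf2bp2: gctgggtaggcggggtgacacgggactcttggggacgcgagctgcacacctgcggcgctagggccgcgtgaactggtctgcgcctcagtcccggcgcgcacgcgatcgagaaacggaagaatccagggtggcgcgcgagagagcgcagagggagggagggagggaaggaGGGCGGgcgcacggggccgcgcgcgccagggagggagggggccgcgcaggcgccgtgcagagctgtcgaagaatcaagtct
Zfp36l1: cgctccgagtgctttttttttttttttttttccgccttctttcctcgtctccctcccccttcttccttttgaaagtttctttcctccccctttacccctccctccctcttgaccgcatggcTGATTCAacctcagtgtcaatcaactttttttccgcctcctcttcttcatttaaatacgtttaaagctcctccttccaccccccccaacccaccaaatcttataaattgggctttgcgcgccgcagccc

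The motifs searched were GGANTTTCC, part of a site bound by NF-κB, TGANTCA, bound by AP-1, TGACGTCA, bound by CREB, and the GC box GGGCGG. The Nfkbia window held GGANTTTCC 170 to 178 bases before the start and, on the reverse strand, 21 to 29 bases before it, with a reverse GC box at 3 to 8 bases. Of 27025 gene promoters of that length, 283 (1.05%) held GGANTTTCC at least once. The Irf2bp2 window held 1 GC box, as did 32.9% of promoters at least once. The Zfp36l1 window held TGANTCA, found in 6.87% of promoters, and TGACGTCA was in none of the 3 windows against 1.62% of all. A match of letters shows neither binding nor use.

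Nfkbia (chr12:55489410-55492647) had 81.0, 108, 83.1 and 89.1 CPM in stressed pools, against 56.8, 63.2 and 64.4 CPM in resilient pools. Every stressed pool was above every resilient pool. The difference was 0.55 ± 0.14 (SE) on the log2 scale, with a 95% interval of 0.24 to 0.86. Control pools had 68.2, 92.1 and 85.1 CPM and overlapped the stressed ones. Against control the log2 difference was 0.14 ± 0.14 for stressed and -0.41 ± 0.15 for resilient pools. The 3 differences share libraries.

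Irf2bp2, on chromosome 8 at chr8:126588296-126593986, encodes a corepressor that binds IRF2 and other factors. It had 87.5, 124, 125 and 142 CPM in stressed pools, against 87.7, 33.7 and 48.5 CPM in resilient pools. The groups overlapped, because resilient pool 1 lay at the level of stressed pool 1. The log2 difference was 1.08 ± 0.28 with an interval of 0.45 to 1.71, and it was 1.54 without resilient pool 1. Controls, at 118, 126 and 148 CPM, overlapped the stressed range. The resilient pools were 1.20 ± 0.30 log2 units below control, while stressed pools differed from control by -0.12 ± 0.28.

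Taf4a, a subunit of the general transcription factor TFIID, had a like arrangement at a lower level. It had 7.19, 9.68, 8.87 and 10.6 CPM in stressed pools, against 7.07, 4.06 and 4.06 CPM in resilient pools and 9.97, 11.0 and 10.9 CPM in controls. The lowest stressed pool was just above the highest resilient pool. The log2 difference was 0.84 ± 0.23, and it was -1.07 ± 0.24 for resilient against control.

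Zfp36l1, whose product binds AU-rich elements and speeds the decay of the messages that carry them, had 84.8, 86.8, 79.6 and 81.5 CPM in stressed pools. Resilient pools had 49.7, 48.3 and 75.3 CPM, so that 2 lay far below the stressed range and 1 just below it. Controls had 73.3, 91.8 and 84.9 CPM. The stressed minus resilient difference was 0.52 ± 0.16 on the log2 scale, and the stressed minus control one was 0.00 ± 0.16. Dok1, an adaptor below receptor tyrosine kinases, had 6.76 to 7.55 CPM in stressed pools against 4.42 to 5.44 CPM in resilient pools, without overlap. Fam129b, a protein of the Niban family, had 25.3 to 28.8 CPM in stressed pools against 18.1 to 20.2 CPM in resilient pools, and controls, at 20.6 to 26.5 CPM, overlapped the stressed range only.

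Itm2a and Sertad1 were higher in every stressed pool than in every resilient and every control pool. Itm2a (chrX:107397099-107403376), a membrane protein with a BRICHOS domain, had 7.07, 7.39, 7.45 and 8.07 CPM in stressed pools, against 2.10, 5.83 and 2.20 CPM in resilient pools. Controls had 2.80 to 4.20 CPM, so the stressed pools lay above all 6 others. Its log2 difference was 1.16 ± 0.34 against resilient and 1.03 ± 0.33 against control. Sertad1, a coregulator of E2F-dependent transcription, had 29.6 to 37.5 CPM in stressed pools against 23.1 to 29.0 CPM in resilient pools, and controls stayed below the stressed range at 26.5 to 29.4 CPM. Erf, an ETS-family repressor held in check by ERK, had 5.79 to 7.84 CPM in stressed pools against 4.18 to 4.77 CPM in resilient pools, and its controls, at 4.41 to 6.09 CPM, overlapped both.

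Cxcl12 (chr6:117168535-117181367), the chemokine that activates Cxcr4, had the largest difference among the 10 higher genes. It had 3.24, 7.19, 3.85 and 5.01 CPM in stressed pools, against 0.870, 2.58 and 1.55 CPM in resilient pools. The groups did not overlap, and the log2 difference was 1.54 ± 0.46 with an interval of 0.52 to 2.56. Controls spanned both, at 1.64, 4.61 and 4.78 CPM.

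The 10 lower genes had smaller differences, between -0.70 and -0.33 on the log2 scale. Nf2 (chr11:4765845-4849536) encodes merlin, which acts at the head of the Hippo growth-control pathway. It had 65.8, 68.4, 83.0 and 70.3 CPM in stressed pools, against 99.9, 91.2 and 96.8 CPM in resilient pools. Every stressed pool was below every resilient pool, by -0.42 ± 0.13 log2 units with an interval of -0.71 to -0.13. Mob1a, a cofactor of the Lats kinases in the same pathway, had 15.8, 16.0, 22.2 and 19.0 CPM in stressed pools, against 25.3, 24.6 and 30.0 CPM in resilient pools. These groups did not overlap either, at -0.55 ± 0.21. Controls of both genes spanned both ranges, with 69.0 to 92.8 CPM for Nf2 and 15.6 to 28.4 CPM for Mob1a.

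Rimkla makes the dipeptide transmitter N-acetylaspartylglutamate. It had 6.72, 6.47, 9.32 and 10.6 CPM in stressed pools, against 14.8, 14.1 and 11.6 CPM in resilient pools, without overlap and with a log2 difference of -0.70 ± 0.25. Rprm, which encodes the p53-dependent cell-cycle inhibitor Reprimo, had 7.15 to 9.56 CPM in stressed pools against 11.6 to 13.9 CPM in resilient pools. Gjc3 encodes a connexin of myelinating glia and had 7.39 to 10.7 CPM in stressed pools against 11.1 to 16.7 CPM in resilient pools. The oligodendrocyte list as a whole had 1444, 1474, 1371 and 2120 summed CPM in stressed pools, against 1493, 1628 and 1496 in resilient pools. All stressed pools but pool 4 thus lay below the resilient ones. The list's median log2 difference was -0.05, and it was -0.09 without stressed pool 4.

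Mettl11b, a protein N-terminal methyltransferase, had 5.06 to 6.01 CPM in stressed pools against 7.52 to 8.81 CPM in resilient pools. It was also below every control pool, which had 6.50 to 9.58 CPM. Ccni, a cyclin-like protein, had 92.3 to 114 CPM in stressed pools against 125 to 137 CPM in resilient pools. Zhx1, a zinc finger and homeobox protein, and Lrrc28 separated the groups as well, with log2 differences of -0.34 ± 0.12 and -0.41 ± 0.15. Trim44 did not, since stressed pool 4 at 69.8 CPM stood just above resilient pool 3 at 69.6 CPM.

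**Figure D2:**
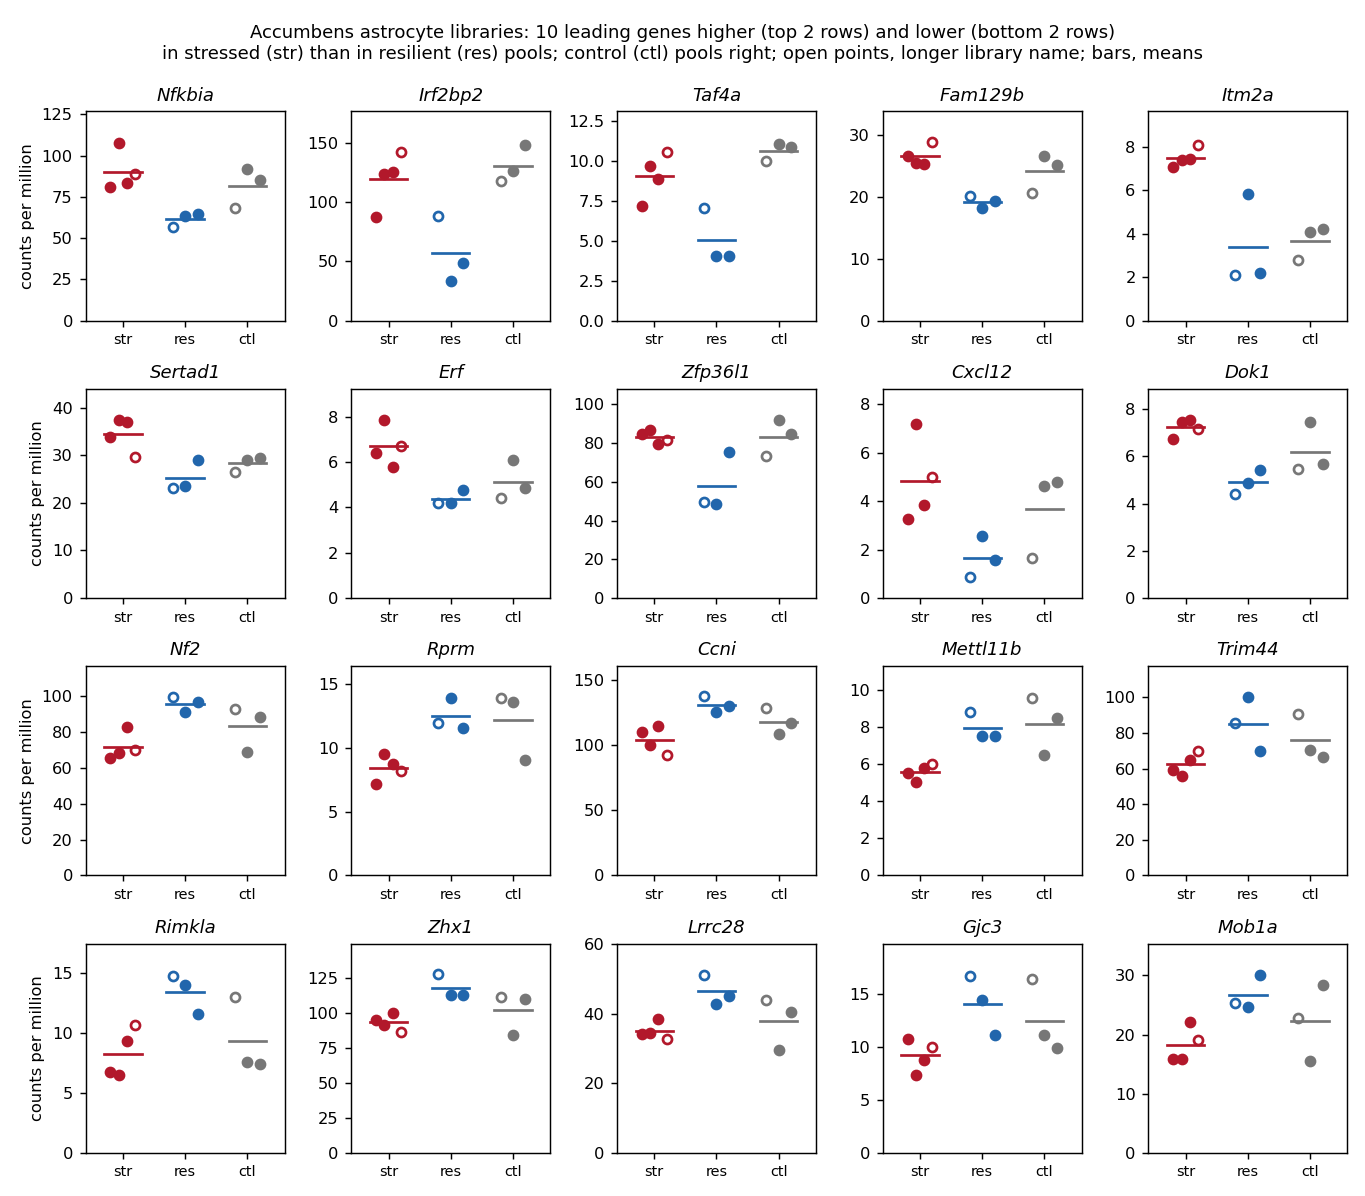
Points are CPM in each of the 10 accumbens libraries, with stressed left, resilient in the middle and control right, bars are group means, and open points are the 3 libraries with the longer name. The 20 genes were picked by the smallest p of this same contrast, which favours separate groups. In 18 of the 20 panels the stressed and resilient points do not overlap, against 4.80% of all genes. Control points of Irf2bp2, Taf4a and Zfp36l1 sit beside the stressed ones and those of Itm2a beside the resilient ones.

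Genes of NF-κB, cytokine and interferon signalling gave 2 of 18 members with an unadjusted p under 0.05, Nfkbia and Irf1, which is 11.1% of the list against 1.98% of all genes. Without stressed pool 4 there were 5, against 12.3% of all genes in that fit. The list's median log2 difference was 0.19. Irf1, an interferon-response transcription factor, had 24.5, 21.9, 19.9 and 20.6 CPM in stressed pools, against 16.4, 15.5 and 16.4 CPM in resilient pools. Every stressed pool was above every resilient and every control pool, the last at 14.1 to 17.7 CPM. Relb, an NF-κB subunit, overlapped between groups, with 14.6 to 20.2 CPM in stressed pools against 12.8 to 16.2 CPM in resilient pools.

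Immediate early genes, which cells transcribe within minutes of a stimulus, gave 4 of 23 members with an unadjusted p under 0.05, all higher in stressed pools and all without overlap. Over all genes 1.98% had such a p, and stressed pools lay wholly above resilient ones for 1.85%. The members were Klf2, Ier5, Klf4 and Ier2, and 1 gene of the list had such a p without resilient pool 3. The median of the list was 0.24, against 0.02 for all genes, and it was 0.05 without stressed pool 4. Klf2, a Krüppel-like factor also typical of endothelium, had 1.99, 1.53, 1.66 and 1.98 CPM in stressed pools, against 1.38, 0.634 and 0.406 CPM in resilient pools. Ier5, a partner of heat shock factor, had 40.5 to 48.6 CPM in stressed pools against 33.1 to 37.1 CPM in resilient pools. Klf4, a related factor, had 1.06 to 1.32 CPM in stressed pools against 0.338 to 0.834 CPM in resilient pools, and Ier2 had 9.33 to 11.7 CPM against 6.93 to 9.09 CPM in those groups. Control pools of all 4 genes overlapped the stressed ones.

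Glucocorticoid receptors and targets had a median of 0.00 over 20 genes. Nfkbia, counted above with the NF-κB genes, is on this list too. With Ddit4 it made 2 of 20 with an unadjusted p under 0.05, against 1.98% of all genes. Ddit4, an inhibitor of mTOR signalling that glucocorticoids induce, had 57.1, 59.2, 60.6 and 60.0 CPM in stressed pools, against 51.4, 33.8 and 47.1 CPM in resilient pools. The groups did not overlap, and controls were at 57.8 to 74.9 CPM. Hsd11b1, which regenerates active glucocorticoid, overlapped, with 16.7 to 53.4 CPM in stressed pools against 17.1 to 31.5 CPM in resilient pools.

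Among 19 circadian clock genes the median was -0.01, and 1 had an unadjusted p under 0.05, against 1.98% of all genes. Without stressed pool 4 the median was -0.14, with 2 genes higher and 3 lower at such a p, against 12.3% of all genes. Ciart, a repressor of Clock and Bmal1, had 29.7, 42.8, 38.7 and 33.9 CPM in stressed pools, against 29.5, 22.4 and 29.0 CPM in resilient pools and 17.3, 18.9 and 13.7 CPM in controls. The stressed and resilient ranges only just separated, at 0.43 ± 0.17, and both lay above the controls. Bhlhe41, another repressor of the loop, had 38.1 to 50.5 CPM in stressed pools against 30.0 to 36.8 CPM in resilient pools. Clock overlapped between groups, with a log2 difference of -0.36 ± 0.21.

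Endothelial genes had the largest median difference of the 38 lists, 1.79 over 10 genes, against 0.02 for all 15283. Of these, 7 had an unadjusted p under 0.05, against 1.98% of all genes, but the groups separated for 1 gene only, Itm2a. Flt1, a receptor for vascular endothelial growth factor, had 2.42, 2.45, 0.347 and 2.89 CPM in stressed pools, against 0.254, 0.676 and 0.236 CPM in resilient pools. Stressed pool 3 lay among the resilient pools. Slco1a4, a transporter of the blood-brain barrier, had 2.58, 2.09, 0.381 and 3.95 CPM in stressed pools, against 0.471, 0.845 and 0.338 CPM in resilient pools, with the same pool low. Ly6c1, which may share reads with its close relative Ly6c2, had 0.451 to 5.01 CPM in stressed pools against 0.471 to 1.23 CPM in resilient pools.

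The summed endothelial level was 29.1, 30.9, 13.2 and 35.5 CPM in stressed pools, against 9.32, 16.4 and 8.14 CPM in resilient pools and 10.7 to 15.8 CPM in controls. Summed astrocyte genes were at 40442 to 83009 CPM in stressed pools, so the endothelial signal was small beside them. The number of endothelial genes with an unadjusted p under 0.05 was 4 without resilient pool 1 and 10 without stressed pool 3. With only the libraries of the short name it was 1, and the median was 1.28. In libraries of dissected tissue, more cells of a type and more RNA for each cell cannot be told apart. The part of vessel RNA in the differences above was not tested.

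Meningeal fibroblast genes had a median of 1.48 over 9 genes, with 3 at an unadjusted p under 0.05 and 6 without stressed pool 4, against 1.98% and 12.3% of all genes in those fits. Igf2, a growth factor made by meninges and vessels, had 9.26, 10.2, 13.8 and 1.95 CPM in stressed pools, against 1.23, 4.02 and 2.13 CPM in resilient pools. Here stressed pool 4 was the low one. Dcn, a small proteoglycan of connective tissue, had 0.458 to 3.25 CPM in stressed pools against 0.217 to 1.01 CPM in resilient pools, and Col1a2, a collagen chain, had 5.76 to 10.2 CPM against 2.50 to 5.16 CPM in those groups. Without resilient pool 1 none of the list had such a p, and without resilient pool 2 there were 7. The summed level was 22.9 to 102 CPM in stressed pools, against 9.83 to 46.4 CPM in resilient pools and 15.7 to 71.4 CPM in controls.

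Microglia and macrophage genes had a median of 0.93 over 15 genes, all with a higher estimate in stressed pools, against 52.9% of all genes. Trem2, a lipid-sensing receptor, had 0.860, 1.05, 0.277 and 0.573 CPM in stressed pools, against 0.217, 0.254 and 0.169 CPM in resilient pools, which rests on 5 to 6 counts in each resilient pool. C1qa, a complement component, had 0.832 to 3.46 CPM in stressed pools against 0.575 to 0.930 CPM in resilient pools. The summed level was 37.2 to 63.4 CPM in stressed pools, against 26.2 to 37.9 CPM in resilient pools and 24.3 to 67.0 CPM in controls. An unadjusted p under 0.05 was found for 2 of the 15, against 1.98% of all genes. It was found for 4 without resilient pool 2 and for none without resilient pool 1 or with only the libraries of the short name. It was also found for 4 without stressed pool 4, beside 12.3% of all genes. Of 8 mural cell genes, Vtn, a matrix protein of pericytes, had 5.96 to 12.6 CPM in stressed pools against 1.09 to 4.95 CPM in resilient pools. The other mural genes had a p of 0.05 or more, and the list's median was 0.45.

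**Figure D3:**
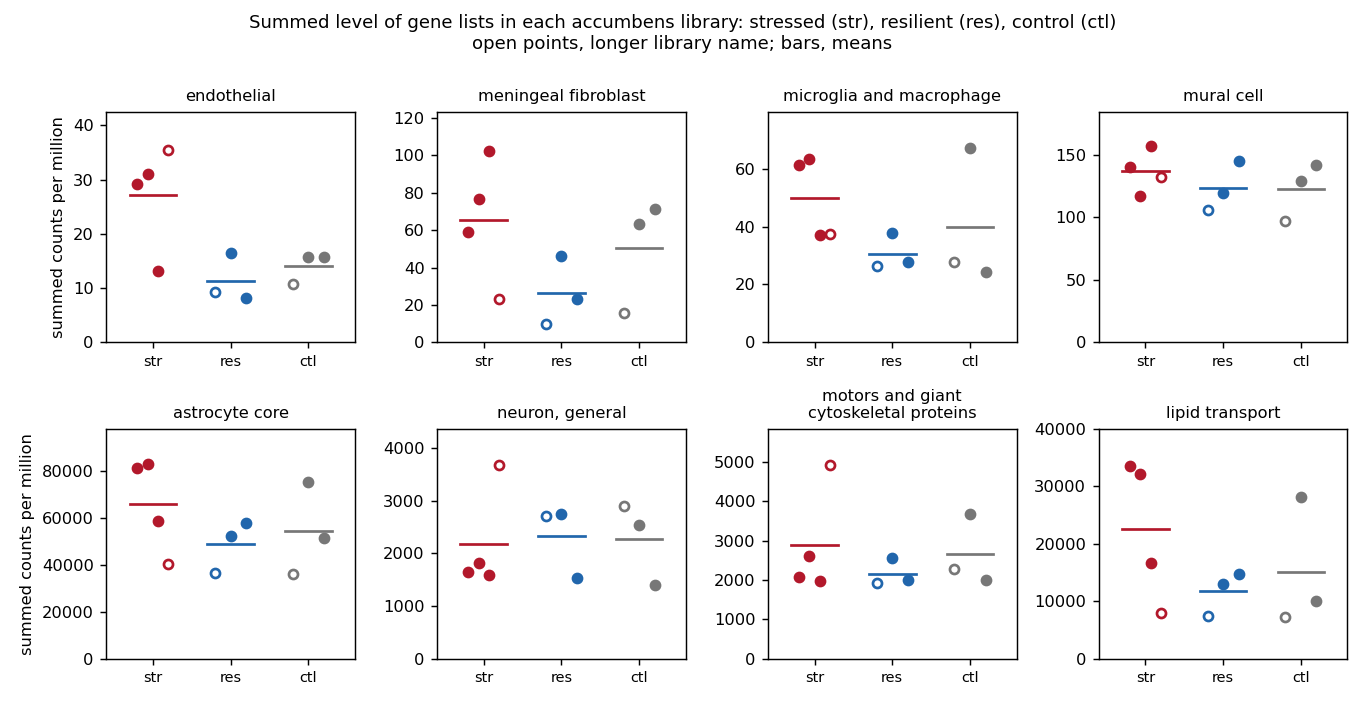
Points are summed CPM of 8 gene lists in each accumbens library, with stressed left, resilient in the middle and control right; bars are means and open points are the libraries with the longer name. Among stressed pools, pool 3 is low for endothelial genes, and pool 4 is low for meningeal and astrocyte genes and high for neuronal and motor genes. Resilient pool 1 and control pool 1, also open points, lie below stressed pool 4 for meningeal and astrocyte genes.

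Astrocyte genes themselves did not separate the groups. Of 24 core genes, 22 had a higher estimate in stressed pools and 0 had an unadjusted p under 0.05. Over all genes those shares were 52.9% and 1.98%. The median was 0.32. Without stressed pool 4 it was 0.54 and 4 genes had such a p, against 12.3% of all genes in that fit, and without resilient pool 1 it was 0.10. Aldh1l1, whose promoter drives the tag, averaged 470 ± 41.1 CPM in stressed pools and 422 ± 90.3 CPM in resilient pools (SD, n = 4 and 3). The interval of its log2 difference was -0.30 to 0.61. Gfap, the intermediate filament that marks reactive astrocytes, had 1585, 2319, 1868 and 1249 CPM in stressed pools, against 1004, 1562 and 1851 CPM in resilient pools, and the interval was -0.44 to 0.95. Rpl10a, whose tagged form comes from the transgene, overlapped as well, at 93.4 to 189 CPM in stressed pools against 95.1 to 129 CPM in resilient pools.

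Genes of glutamate, potassium and water handling varied widely within the stressed group and, for Slc1a2 and Kcnj10, within the control group too. Slc1a2, the main glutamate transporter, had 2953, 2804, 1315 and 731 CPM in stressed pools, against 793, 1174 and 1384 CPM in resilient pools. Stressed pools 1 and 2 were high and stressed pool 4 was below all resilient pools. Control pools had 734, 2951 and 857 CPM, so control pool 2 was as high as stressed pools 1 and 2. Kcnj10, the inward rectifier of astrocyte membranes, had 143, 149, 116 and 25.9 CPM in stressed pools, against 33.7, 38.1 and 58.4 CPM in resilient pools. Stressed pool 4 was again low, and control pools had 24.9, 143 and 28.4 CPM. Gja1, the main astrocyte connexin, and Aqp4, the endfoot water channel, had intervals of -0.55 to 1.10 and -0.53 to 1.27 on the log2 scale. None of the 19 glutamate and GABA or 18 potassium, water and gap junction genes had an unadjusted p under 0.05. Without stressed pool 4, 2 of the glutamate and GABA genes had such a p with a higher and 2 with a lower estimate in stressed pools. In that fit 4 of the potassium, water and gap junction genes did, all higher, against 12.3% of all genes.

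Lipid transport genes had a median of 0.46 over 18 genes, which was 0.28 without resilient pool 1 and 0.64 without stressed pool 4. An unadjusted p under 0.05 was found for 2 of them, and for 7 without stressed pool 4, against 1.98% and 12.3% of all genes. Pltp, a phospholipid transfer protein, had 24.5, 19.8, 17.3 and 21.0 CPM in stressed pools, against 11.5, 12.5 and 13.9 CPM in resilient pools, without overlap and with a log2 difference of 0.71 ± 0.25. Scarb1, a receptor for high-density lipoprotein, was on the other side, with 14.1 to 17.0 CPM in stressed pools against 17.2 to 21.2 CPM in resilient pools. Apoe, the main apolipoprotein of astrocytes, had 25387, 23723, 10823 and 4868 CPM in stressed pools, against 4476, 8246 and 9439 CPM in resilient pools. Stressed pools 1 and 2 stood above the other 5 of these libraries, and stressed pool 4 was in the resilient range. Control pools of Apoe varied as widely, at 4472, 21248 and 5693 CPM.

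Chaperones of the endoplasmic reticulum and of the unfolded protein response had a median of 0.50. Estimates were higher in stressed pools for 24 of the 25 genes, against 52.9% of all genes. None of the 25 had an unadjusted p under 0.05, and 4 separated the groups, as 4.80% of all genes did. Without stressed pool 4 the median was 0.72 and 9 genes had such a p, against 12.3% of all genes, and without stressed pool 1 the median was 0.34. Hspa5, the chaperone BiP, had 186, 147, 106 and 106 CPM in stressed pools, against 61.1, 101 and 94.1 CPM in resilient pools. Syvn1, a ubiquitin ligase that clears misfolded proteins, had 22.0 to 25.3 CPM in stressed pools against 13.1 to 21.0 CPM in resilient pools. Controls of both genes reached into both ranges.

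Lysosomal genes were higher in estimate for all 20 members tested, against 52.9% of all genes, with a median of 0.45. In the full comparison 0 had an unadjusted p under 0.05, and 7 did without stressed pool 4, against 12.3% of all genes. Psap, the precursor of the saposins, had 1001, 1126, 505 and 384 CPM in stressed pools, against 290, 359 and 435 CPM in resilient pools. Its control pools had 245, 914 and 276 CPM. Secreted and matrix proteins that organize synapses had a median of 0.51 over 24 genes, with 1 such p, against 1.98% of all genes. Without stressed pool 4 the median was 0.69 with 8, against 12.3% of all genes. Gpc4, an astrocyte glypican that promotes glutamate receptor clustering, had 6.72, 9.04, 6.06 and 3.92 CPM in stressed pools, against 2.25, 3.51 and 4.29 CPM in resilient pools. Only stressed pool 4 lay inside the resilient range. Without resilient pool 1 the medians of these lists were 0.29 and 0.31.

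An unadjusted p under 0.05 was found for 1 of 27 neuromodulator receptors and 1 of 9 genes of monoamine uptake and breakdown. It was found for 1 of 25 genes of glycolysis, glycogen and lactate and 1 of 23 trophic factors and receptors. Over all genes the share was 1.98%, and the 4 genes follow in that order. Adrb1, the β1 adrenergic receptor, had 20.1, 19.8, 15.6 and 12.6 CPM in stressed pools, against 9.83, 9.38 and 13.1 CPM in resilient pools. Aldh2, the mitochondrial aldehyde dehydrogenase, had 291 to 398 CPM in stressed pools against 243 to 297 CPM in resilient pools. Hk2, an inducible hexokinase, had 1.12 to 1.64 CPM in stressed pools against 0.580 to 0.972 CPM in resilient pools. Tgfbr2, a receptor for transforming growth factor β, had 2.25 to 4.10 CPM in stressed pools against 1.52 to 2.13 CPM in resilient pools. Hk2 and Tgfbr2 did not overlap between the groups, as 4.80% of all genes did not, whereas Adrb1 and Aldh2 did.

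Motors and giant cytoskeletal proteins had a median of 0.67 over 19 genes. Of these, 0 had an unadjusted p under 0.05, and 5 did without stressed pool 3, against 2.52% of all genes. Dst, a spectraplakin, had 38.6, 62.0, 27.4 and 89.7 CPM in stressed pools, against 21.4, 32.8 and 19.0 CPM in resilient pools. Stressed pool 4 was the highest, and without it the median of the list was 0.27. Neuronal genes had a median of -0.04, which was -0.38 without stressed pool 4. Cytosolic ribosomal proteins, nuclear subunits of oxidative phosphorylation and proteasome subunits had medians of 0.06, 0.05 and 0.05 over 77, 79 and 38 genes, with no unadjusted p under 0.05. Without stressed pool 4 the medians were 0.15, 0.16 and 0.09, and 18, 23 and 1 of these genes had such a p, all higher in stressed pools, against 12.3% of all genes.

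Stressed pool 4 differed from the other stressed pools in how levels varied with transcript length. The Spearman correlation of level relative to the other accumbens libraries with transcript length, across genes, was 0.44 in that pool and between -0.28 and -0.27 in the other 3 stressed pools. Resilient pools were at 0.02, 0.25 and -0.08. Across 11820 genes the log2 fold change had a correlation of -0.02 with length, and of -0.28 without stressed pool 4. Genes are not independent replicates, and whether length bears on the differences was not tested further.

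**Figure D4:**
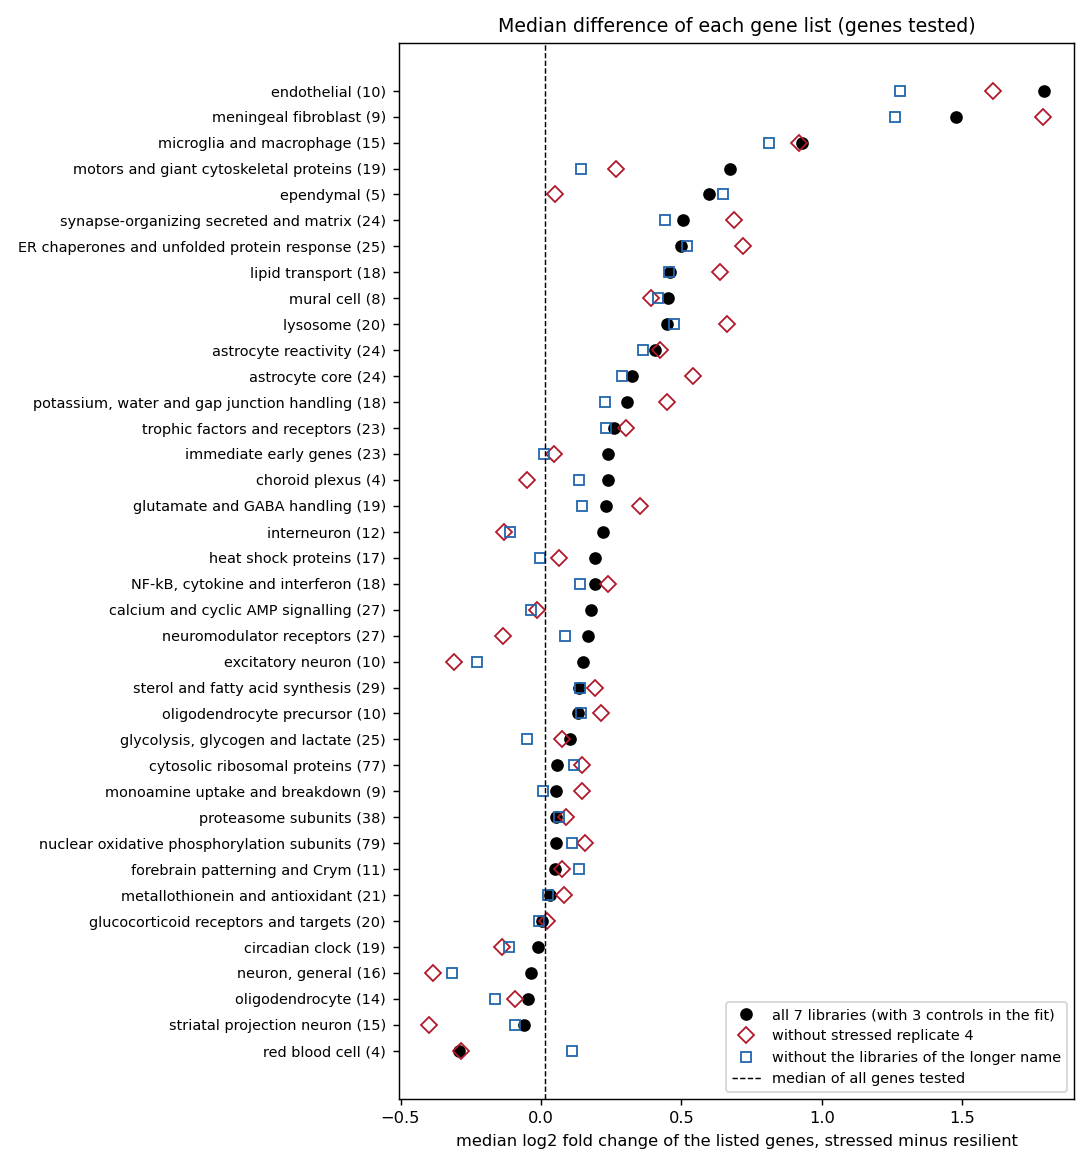
Each row is 1 of 38 gene lists, with the number of genes tested in brackets and the median log2 fold change, stressed minus resilient, on the horizontal axis. Black points use all libraries, red diamonds leave out stressed pool 4, blue squares leave out the 3 libraries with the longer name, and the dashed line is the median of all genes tested. Endothelial, meningeal and microglial lists stay at the right in all 3 settings, while neuronal and motor lists shift to the left without stressed pool 4.

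The same contrast in the other regions was used to ask whether the accumbens stood apart. In each region's own fit, 3875 of 15491 genes (25.0%) passed in the prefrontal cortex. The hippocampus had 0 of 15758 and the caudate putamen 0 of 14958. Group sizes differed between regions and were smallest in the caudate putamen, and pools outside the accumbens held fewer mice. The counts of passing genes therefore cannot be compared between regions as measures of effect. The accumbens difference minus the mean difference of the other 3 regions passed for 0 of 16759 genes in edgeR and for 0 in DESeq2. The smallest adjusted p was 1.00, and 359 genes (2.14%) had an unadjusted p under 0.05. That count was 1207 without stressed pool 4, 562 without resilient pool 3 and 229 without stressed pool 3.

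Cxcl12 was among the 8 genes with the smallest p in that test. In a joint fit of all 40 libraries its log2 difference, stressed minus resilient, was 1.55 in the accumbens. It was 0.71 in prefrontal, 0.76 in hippocampal and -1.55 in caudate putamen libraries. Car4, a carbonic anhydrase of brain capillaries, was at 1.44 in the accumbens and at 0.24, 0.15 and -2.06 in the other regions in that order. Its caudate putamen interval was -3.54 to -0.57. Trim44 was at -0.44 in the accumbens and at 0.18, 0.24 and 0.13 in the other regions. Clock was at -0.35 in the accumbens and at 0.40, 0.47 and 0.23 elsewhere. R3hdm1, Lhfpl4, Mpp5 and the copper pump Atp7a also had a negative estimate in the accumbens and positive ones in the other 3 regions. The edgeR adjusted p of each of these 8 was 1.00.

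Irf2bp2 and Taf4a had differences in the caudate putamen of 1.54 and 1.47 beside 1.09 and 0.85 in the accumbens of the joint fit. In the prefrontal cortex they were at -0.18 and -0.15. Nfkbia was at 0.57 in the accumbens, 0.46 in caudate putamen, 0.25 in prefrontal and -0.07 in hippocampal libraries. Itm2a was higher in stressed pools of the accumbens, prefrontal cortex and hippocampus, at 1.17, 1.30 and 1.10, and was at -1.07 in the caudate putamen. Among the lower genes, Nf2, Ccni, Mettl11b, Zhx1, Lrrc28 and Mob1a had prefrontal log2 differences between -0.96 and -0.44 in that fit. Their edgeR adjusted p there was between 0.0053 and 0.011. Passing was common in the prefrontal cortex, where 25.0% of all genes passed in that region's own fit. The share of all genes in the joint fit is not given here. None of the genes named here passed the test of the accumbens against the other regions.

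**Figure D5:**
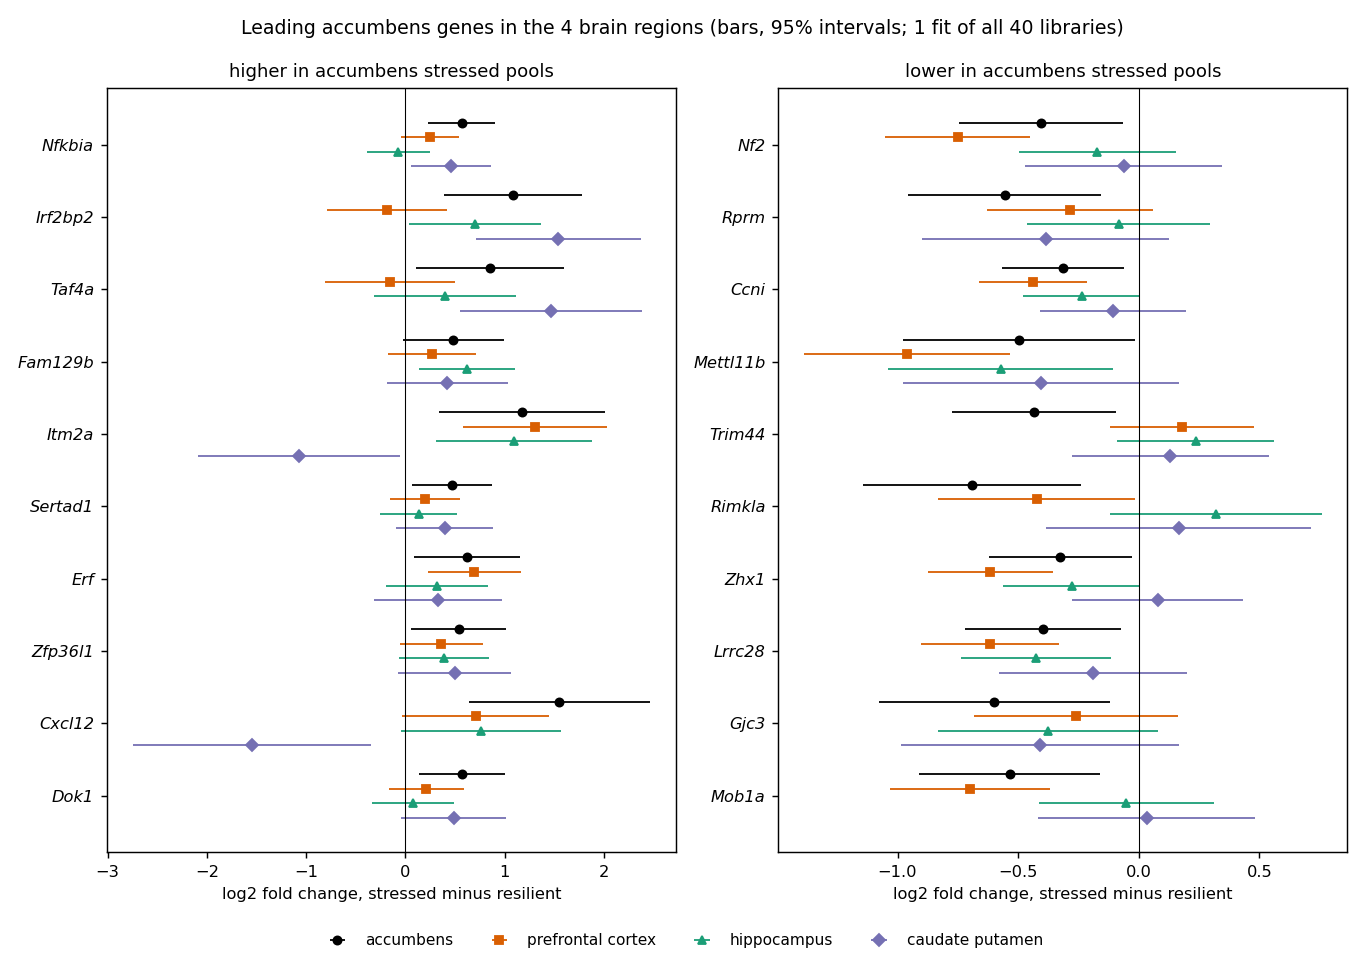
Points are log2 fold changes, stressed minus resilient, of the 10 leading higher (left) and lower (right) accumbens genes in 4 brain regions from a joint fit of all 40 libraries, with 95% intervals. Cxcl12 and Itm2a point in opposite directions in the accumbens and the caudate putamen, and Trim44 is below 0 in the accumbens only.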

How the data were processed

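Ribosome-bound RNA of accumbens astrocytes was compared between 4 stressed and 3 resilient pools. The submitters' processing notes name STAR 2.0.0e, HTSeq and mm10. Which annotation, HTSeq version, overlap mode and strand option were used is not given in the sources used here. The deposited values are raw counts per gene for 32531 gene rows. A row that named no gene (0 to 2 counts in each accumbens library) and the HTSeq summary rows were left out. Per library, 3.89 to 4.08% of the reads in the accumbens tables were set aside as ambiguous between genes.

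Counts were tested with edgeR 4.0.16 in R 4.3.3 (filterByExpr, TMM, robust quasi-likelihood, Benjamini-Hochberg, adjusted p under 0.05). The fit held all 10 accumbens libraries, controls included. The accumbens difference was also tested against the mean of the other regions in 1 fit of 40 libraries. CPM are counts scaled with TMM library sizes. DESeq2 1.42.0, other scaling, no filter, a replicate term, the naming form and leaving out each library were alternatives. The code was tested on simulated data.

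Named genes were, in each direction, the 10 with the smallest p at 1 log2 CPM or above, since fewer than 3 passed. Up to 4 genes of each list, 6 reference genes and 8 from the region test were added. The members, the 38 lists and the motifs were chosen with earlier results of these data known. Coordinates are GENCODE on GRCm38, the build of mm10, which holds no gene under the symbol Taf4a. Fam129b, Rimkla, Hsd11b1, Ciart, Syvn1 and Pltp overlap another tested gene, whose reads cannot be told apart from theirs if strand was not used.

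Replicates of a group differed by more than sampling noise, with a chi-square of 11.4 to 266 for each degree of freedom over 12 pairs, so none was counted as a duplicate. Deviations of same-numbered stressed and resilient pools had correlations of -0.25, -0.06 and 0.48. The last lay above those of all differently numbered pools, which ran from -0.63 to 0.43, and the other same-numbered values lay within that span. So few pairs cannot show whether the numbers pair the pools, and the main test did not take them as pairs. Intervals of 95% are for the difference between groups, with its error taken from the spread between pools, and do not span the single pools.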

Additional observations from a re-analysis of the deposited data

Results flagged for a closer look

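In stressed pool 4 the Spearman correlation of relative level with transcript length, across genes, was 0.443, while the other 3 stressed pools lay between -0.279 and -0.265. The gap took 0.98 of the group's range, above Dixon's 95% critical value for 4 samples. Of 81 quantities checked in the stressed group this was the only one that stood out so, where chance gives about 1 in 20.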

How the results depend on the processing

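No gene passed the adjusted test under any of the 15 alternatives, in the comparison of stressed with resilient pools, and none did under the 11 tried for the accumbens against the other regions. The smallest adjusted p over the first set was 0.251, reached with the replicate number as a block. That block fit gave 2942 genes with an unadjusted p under 0.05 in place of 302, and 1677 in place of 359 against the other regions, but the numbers are not known to pair the pools, and stressed pool 4 has no resilient partner. The count was 588 with the naming form as a covariate and 925 with only libraries of the short name. Leaving out 1 library at a time gave 138 to 1859 genes, and 229 to 1207 against the other regions. Of the 75 genes followed through the alternatives, 1 turned direction: Aldh1l1 had a log2 difference of -0.049 with only libraries of the short name and -0.0079 to 0.29 when 1 library was left out, the first of these without resilient pool 1. The cause of these shifts was not tested. With 4 and 3 pools, differences under about 0.42 log2 units lie inside the usual interval, and low genes such as Trem2 rest on few counts.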
